A study of Homo sapiens with 6 samples.

Results

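The EGFR ligands and ERBB receptors were examined in RNA-seq data from HBECs, a human bronchial epithelial line that has been immortalized, labelled as HBE cells of WT genotype. In 3 libraries the cells had been treated for 24 h with CRE, a cockroach extract used as allergen, and in the other 3 with CRE and VAF347, a small-molecule agonist of the aryl hydrocarbon receptor (AhR), given before the CRE (CRE+VAF347). The members were taken by gene symbol and are 10 of the 61228 gene names in the deposited tables. They are the ligand genes *AREG*, *EREG*, *EPGN*, *TGFA*, *HBEGF*, *BTC* and *EGF*, and the receptor genes *EGFR*, *ERBB2* and *ERBB3*. All 6 libraries carry CRE, and cells without CRE or with VAF347 alone were not analysed here, so each value below compares VAF347 with its absence on a CRE background. The labels number the replicates but do not say that they came from separate cultures, so p-values measure the spread between these libraries, which may be technical.

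EGFR and its relatives are receptor tyrosine kinases that pair on binding a ligand of the EGF family and then signal through RAS and ERK, PI3 kinase and phospholipase C gamma. The ligands are made as membrane-anchored precursors, and metalloproteases such as ADAM17 and ADAM10 release them from the cell surface. TGF-alpha, EGF, betacellulin and HB-EGF bind EGFR with high affinity, whereas amphiregulin, epiregulin and epigen bind it with low affinity. ERBB2 has no ligand of its own and serves as a partner, and ERBB3 binds neuregulins but has little kinase activity. In airway epithelium this system is known for its part in repair after injury and in mucus production.

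Estimated counts were compared with edgeR's quasi-likelihood test over 15373 genes that passed a filter on low counts, and genes were called at a Benjamini-Hochberg adjusted p under 0.05 with an absolute log2 fold change over 0.5. By this rule 2.21% of the genes tested were called, 0.501% higher and 1.71% lower with VAF347. The libraries held 8873160 to 10750283 counts. The AhR targets *CYP1A1*, *CYP1B1*, *AHRR* and *TIPARP*, all induced by AhR agonists, were called higher, 4 of 4. Among 7 epithelial and basal markers, *KRT8*, *KRT18*, *EPCAM* and *CDH1* were abundant, at 233 TPM or more in every library, whereas of the basal cell markers *KRT14* and *TP63* had at most 2 counts and *KRT5* had 156 to 169 counts with CRE and 108 to 122 counts with CRE+VAF347 (log2 fold change -0.37, edgeR adjusted p = 0.0773). Markers of club, goblet and ciliated cells, fibroblasts and leukocytes gave 0 edgeR calls among the 4 genes tested of 15. *SCGB1A1*, *MUC5AC*, *DCN* and *PDGFRA* were at 0 in every library, but the collagen gene *COL1A1* had 14.4 to 20.2 TPM. *FOXJ1*, from the list of club, goblet and ciliated cells, had 7 to 21 counts (log2 fold change -0.48, edgeR adjusted p = 0.488). The fibroblast marker *PDGFRB* had 8 to 17 counts (log2 fold change -0.27, edgeR adjusted p = 0.68). *CD68*, a macrophage marker, had 21.2 to 24.3 TPM with CRE and 13.8 to 19.3 TPM with CRE+VAF347 without overlap (log2 fold change -0.43, edgeR adjusted p = 0.0912). Of 3 endothelial markers, *VWF* and *CDH5* fell, with a summed level of 7.31 to 7.92 TPM with CRE and 3.95 to 4.67 TPM with CRE+VAF347, and *PECAM1* had at most 3 counts. Their part in the results was not tested. CRE replicate 3 stood apart from CRE replicates 1 and 2, as its counts gave a chi-square of 9.25 and 8.95 per gene, averaged over genes, against 2.49 between the other two, so results that rest on it are given with and without it.

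Of the 10 members, 9 passed the filter and *EGF* did not. *EREG*, *EPGN* and *AREG*, which encode epiregulin, epigen and amphiregulin, rose with VAF347, and 0 members fell, that is 3 of 9 called where 2.21% of all genes tested were. The 3 that rose are the low-affinity ligands of the family. The median log2 fold change of the 9 members was 0.22, against 0.01 over all genes tested. The members were chosen with earlier results of these data known, so these contrasts with all genes are not a test. At any fold change the same 3 passed an adjusted p under 0.05, where 5.42% of the genes tested did, 1.35% higher and 4.07% lower. Unadjusted, 6 of the 9 had a p under 0.05, as did 20.8% of the genes tested. With 3 libraries in each group the smallest p of an exact permutation test is 0.1, and the tests of single genes come from the fit across all genes.

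**Figure D1:**
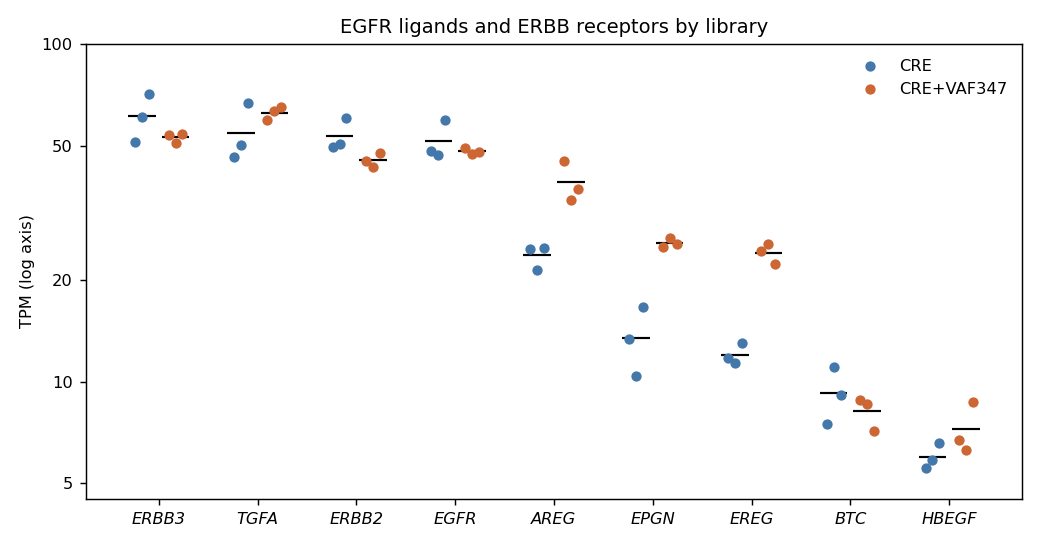
TPM (log axis) of the 9 members that passed the filter, ordered by their mean with CRE. Each point is a library (blue CRE, orange CRE+VAF347, 3 each) and black lines are means; *AREG*, *EPGN* and *EREG* are the genes whose orange points lie well above all blue points.

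On the TPM scale, which corrects for transcript length, ERBB3, TGFA, ERBB2 and EGFR RNA were the most abundant members with CRE, at means of 61.0, 54.5, 53.5 and 51.7 TPM. The ranges of neighbours among these 4 overlapped, so their order was not resolved. *AREG* followed at 23.7 TPM, below all of them in every CRE library, then *EPGN* at 13.5 and *EREG* at 12.0, whose ranges overlapped each other. *BTC* (9.24 TPM), *HBEGF* (6.01 TPM) and *EGF* (0 TPM) were the lowest, in that order and without overlap among themselves. With VAF347, *TGFA* was above *ERBB3* and *ERBB3* above *EGFR* in every library, *ERBB2* overlapped both *EGFR* and *AREG*, and *BTC* no longer separated from *HBEGF*.

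*EREG* encodes epiregulin, which binds EGFR and ERBB4. It had 11.8, 11.3 and 13.0 TPM in CRE replicates 1 to 3 and 24.3, 25.5 and 22.3 TPM in CRE+VAF347 replicates 1 to 3. The groups were far apart, and the lowest library with VAF347 lay above the highest without it. Its counts went from 153 to 180 with CRE to 324 to 358 with VAF347, a rise of 1.14 ± 0.09 (SE) on the log2 scale with an edgeR adjusted p of 6.1e-05, or 2.20-fold with a 95% interval of 1.92 to 2.52. With any 1 library left out, the estimate stayed between 1.08 and 1.18.

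*EPGN* encodes epigen, a ligand made mainly by epithelial cells. Its levels were 13.4, 10.4 and 16.7 TPM with CRE and 25.0, 26.7 and 25.5 TPM with CRE+VAF347. In TPM the CRE libraries scattered more (SD 3.14) than the VAF347 libraries (SD 0.842). In counts scaled to library size (CPM) the VAF347 libraries scattered more, with an SD of 2.4 against 1.35 with CRE. On both scales CRE replicate 3 was the CRE library closest to the VAF347 libraries, without reaching them. The rise was 1.00 ± 0.12 (SE) on the log2 scale, edgeR adjusted p = 0.000882, and amounted to 2.00-fold with a 95% interval of 1.66 to 2.41. Without CRE replicate 3 it was 1.11.

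*AREG* encodes amphiregulin, a heparin-binding ligand also made by immune cells in type 2 inflammation. It had 24.7, 21.5 and 24.9 TPM with CRE and 45.0, 34.4 and 37.3 TPM with CRE+VAF347. The groups did not overlap, and CRE+VAF347 replicate 1 stood highest. The rise was 0.76 ± 0.12 (SE) in log2 units, edgeR adjusted p = 0.00531, or 1.69-fold with a 95% interval of 1.40 to 2.04. Without CRE+VAF347 replicate 1 the log2 fold change was 0.63. The *AREG* call was the least secure of the 3, since limma on log2(TPM + 1) over genes with a mean TPM of at least 1 gave an adjusted p of 0.0531.

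**Figure D2:**
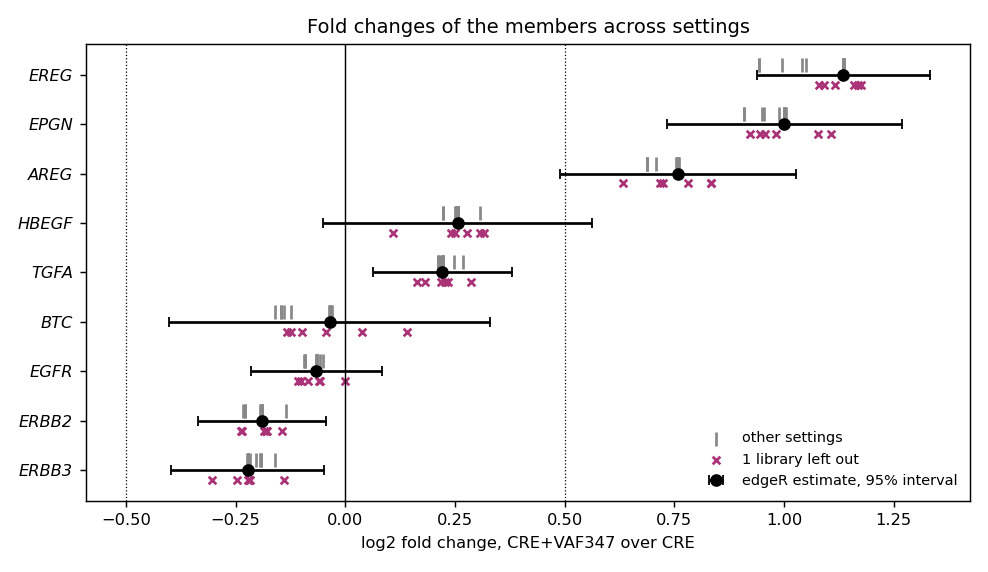
Log2 fold change of CRE+VAF347 over CRE for the 9 members tested. Black circles with bars are the edgeR estimates with 95% intervals, grey ticks are 11 other settings for the test, filter, scaling or unit, crosses are fits without 1 library, and dotted lines mark the fold threshold of 0.5; every tick and cross of *EREG*, *EPGN* and *AREG* lies to the right of 0.5.

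The ligand genes that rose are neighbours on the plus strand of chromosome 4 (GRCh38, the build named in the submitters' processing notes as hg38). In the GENCODE v44 annotation *EPGN* lies from 74308470 to 74316789, *EREG* from 74365145 to 74388749 and *AREG* from 74445136 to 74455005, all within 146536 bases. *BTC*, the next member along the chromosome, lies from 74744759 to 74794523 on the minus strand, 289754 bases beyond the end of *AREG*. *EGF*, on the same chromosome from 109912883 to 110013766, is far from them. The annotation held 49 entries within 1000 kb of *AREG* with a name in the deposited tables, and *PPBPP2* was entered more than once. Of these entries, 10 passed the filter and 3 were called, namely *EPGN*, *EREG* and *AREG*. This window was drawn after the values were seen. The nearest tested gene before *EPGN*, *MTHFD2L*, which encodes a mitochondrial folate enzyme, had a log2 fold change of 0.28 (95% interval -0.18 to 0.74, adjusted p = 0.492 from the edgeR test). The chemokine gene *CXCL2* had 0.83 at only 10 to 25 counts per library (95% interval 0.10 to 1.57, edgeR adjusted p = 0.184), and its groups did not overlap. *CXCL8*, *CXCL6* and *CXCL1*, further out, had log2 fold changes of -0.29, -0.43 and -0.04.

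**Figure D3:**
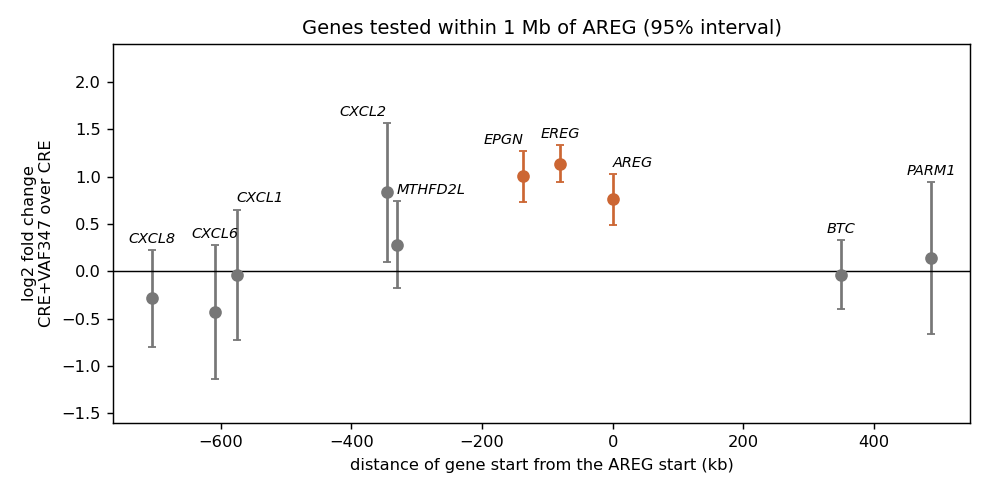
Log2 fold change (vertical axis, bars are 95% intervals) of the 10 genes tested within 1000 kb of *AREG*, against the distance in kb of each gene's start from that of *AREG*. Orange genes were called: *EPGN*, *EREG* and *AREG* have intervals from 0.49 to 1.33, and *BTC*, at 349 kb, lies at -0.04.

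RefSeq promoter windows on GRCh38.p14 were found for 9 of the 10 members, 11 windows in all, and *ERBB3* was not among them. The 250 bases before the start of the genes that rose are shown 5′ to 3′ on the plus strand, since these neighbours rose together. Capitals mark the AhR core sequence GCGTG or its reverse complement CACGC, the cAMP response element TGACGTCA and the TATA box TATAAA, each searched on both strands. The windows are chr4:74308220-74308469 for *EPGN*, chr4:74364895-74365144 for *EREG* and chr4:74444886-74445135 for *AREG*.
EPGN: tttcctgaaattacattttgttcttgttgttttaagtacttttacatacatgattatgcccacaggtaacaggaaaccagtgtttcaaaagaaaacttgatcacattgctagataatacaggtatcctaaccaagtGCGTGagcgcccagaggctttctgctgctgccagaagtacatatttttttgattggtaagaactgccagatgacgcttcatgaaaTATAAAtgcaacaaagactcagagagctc
EREG: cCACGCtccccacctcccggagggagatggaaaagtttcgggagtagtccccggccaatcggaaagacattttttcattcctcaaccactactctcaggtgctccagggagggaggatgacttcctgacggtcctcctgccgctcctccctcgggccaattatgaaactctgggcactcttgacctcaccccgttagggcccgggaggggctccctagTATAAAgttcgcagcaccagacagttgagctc
AREG: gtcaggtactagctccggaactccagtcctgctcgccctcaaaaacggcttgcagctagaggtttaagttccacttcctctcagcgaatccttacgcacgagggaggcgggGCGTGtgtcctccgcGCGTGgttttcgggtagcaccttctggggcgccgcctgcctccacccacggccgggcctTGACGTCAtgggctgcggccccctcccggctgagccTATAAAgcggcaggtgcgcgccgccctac
The TATA sequence stood at -29 in *EPGN*, -32 in *EREG* and -29 in *AREG*, counting from -1 at the base before the start. A TATA sequence that begins between -35 and -25 was found in 2.64% of all 35116 windows, and in none of the windows of the other 6 members with a RefSeq entry. One of the *EGFR* windows had TATAAA at -146 and at -36, just outside that range, and 10.7% of all windows held it at any position. Near matches to TATAAA were not searched for. The motif search and the range from -35 to -25 were not among the planned comparisons, and no difference between genes was tested. The AhR core was found at -139 and -124 in *AREG*, at -114 in *EPGN* and, as its reverse complement, at -249 in *EREG*. It was also present in *BTC*, at -94, and in 1 of the *TGFA* windows, at -51, neither of which was called. With 32.2% of all windows holding the core and 10.2% holding it more than once, its presence did not single out these promoters. The cAMP response element occurred in *AREG* alone among the members, at -65, and in 1.65% of all windows. The AP-1 sequence TGACTCA, found in 4.2% of windows, was in none of the promoters shown.

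*TGFA*, which encodes TGF-alpha, was the most abundant ligand. It had 46.3, 50.4 and 66.8 TPM with CRE and 59.6, 63.2 and 64.9 TPM with CRE+VAF347. On this scale CRE replicate 3 lay above every VAF347 library, whereas in CPM, which are counts scaled to library size, the groups did not overlap. Its log2 fold change was 0.22 (95% interval 0.06 to 0.38) and did not pass the test (adjusted p = 0.106 from edgeR). Without CRE replicate 3 it was 0.29 (edgeR adjusted p = 0.00798), which is below the fold threshold of 0.5.

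*HBEGF* encodes HB-EGF, the heparin-binding ligand that is shed after epithelial wounding. Its levels were 5.54, 5.88 and 6.60 TPM with CRE and 6.72, 6.26 and 8.70 TPM with CRE+VAF347. The groups overlapped in TPM, and CRE+VAF347 replicate 3 was the highest. The log2 fold change of 0.26 (95% interval -0.05 to 0.56, edgeR adjusted p = 0.329) fell to 0.11 without that library.

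*BTC* encodes betacellulin and had 7.50, 11.1 and 9.16 TPM with CRE and 8.84, 8.61 and 7.13 TPM with CRE+VAF347. The 3 VAF347 values lay inside or below the CRE range. Its log2 fold change was -0.04 with a 95% interval of -0.40 to 0.33 (edgeR adjusted p = 0.933), and its sign turned when CRE replicate 2 was left out (0.14). *EGF* had 0 counts in 5 libraries and 1 count in CRE+VAF347 replicate 2. A count of 3, taken as the floor of detection, is 0.279 to 0.338 CPM in these libraries, so EGF RNA was not detectable at this depth.

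Among the receptors, *EGFR* had 2882, 2935 and 3568 counts with CRE and 2702, 2730 and 2891 with CRE+VAF347, the highest counts of any member. In TPM it had 48.3, 47.0 and 59.7 against 49.3, 47.3 and 47.9. All values but that of CRE replicate 3 lay between 47.0 and 49.3 TPM. The log2 fold change was -0.07 (95% interval -0.21 to 0.08, edgeR adjusted p = 0.626), which bounds a change at 0.862-fold to 1.06-fold. Without CRE replicate 3 it was -0.0011 (edgeR adjusted p = 0.993). *EGFR* lies on chromosome 7 from 55019017 to 55211628, and its antisense gene *EGFR-AS1* had at most 6 counts in a library.

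*ERBB2* encodes the receptor without a ligand of its own and had 49.5, 50.7 and 60.2 TPM with CRE and 44.9, 43.4 and 47.7 TPM with CRE+VAF347. Each VAF347 library lay below each CRE library. The log2 fold change of -0.19 (95% interval -0.34 to -0.04) did not pass the test (edgeR adjusted p = 0.129), and was -0.14 without CRE replicate 3. *ERBB3* had 51.1, 60.8 and 71.2 TPM with CRE and 53.6, 50.9 and 54.1 TPM with CRE+VAF347. The CRE libraries spread widely and CRE replicate 1 lay inside the range of the VAF347 libraries in TPM, while in CPM the groups did not overlap. Its log2 fold change was -0.22 (95% interval -0.40 to -0.05, edgeR adjusted p = 0.138), and -0.14 without CRE replicate 3. Without CRE replicate 1 it was -0.30 (edgeR adjusted p = 0.0407), under the fold threshold. Groups that did not overlap in CPM were found for 5 members on the higher side and 2 on the lower side, against 27.3% of the genes tested, 12.5% higher and 14.8% lower. *ERBB2*, on chromosome 17 from 39687914 to 39730426, overlaps *PGAP3* and *MIEN1* on the opposite strand, which had 105 to 130 and 237 to 310 counts. *ERBB3* lies on chromosome 12 from 56076799 to 56103505, *TGFA* on chromosome 2 from 70447284 to 70554193 and *HBEGF* on chromosome 5 from 140332843 to 140346603.

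Summed over the 7 ligand genes, the libraries held 109.2, 110.5 and 137.1 TPM with CRE and 169.5, 164.8 and 165.9 TPM with CRE+VAF347. The groups did not overlap, and the difference of the means was 47.8 TPM. The summed TPM of the 3 receptor genes was 166 ± 22.1 with CRE and 146 ± 4.30 with CRE+VAF347 (SD, n = 3 each), and these ranges overlapped. Ligand RNA per receptor RNA was thus 0.733, 0.697 and 0.718 with CRE, below 1 in each library, and 1.15, 1.16 and 1.11 with CRE+VAF347, above 1 in each. Within the ligand sum, *TGFA* took 45.6% ± 3.14 with CRE and 37.5% ± 2.10 with VAF347 (SD, n = 3 each). *AREG*, *EREG* and *EPGN* together took 41.5% ± 3.60 and 53.2% ± 2.23 (SD, n = 3 each). The share of *EREG* was 10.2% ± 0.655 with CRE and 14.4% ± 1.01 with VAF347 (SD, n = 3 each), without overlap, while that of *AREG* overlapped at 20.1% ± 2.29 and 23.3% ± 2.92 (SD, n = 3 each). These sums rest on the members chosen and are given without a test. They count RNA. In bulk samples a change in the share of cells expressing a gene cannot be told apart from a change in its RNA per cell.

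**Figure D4:**
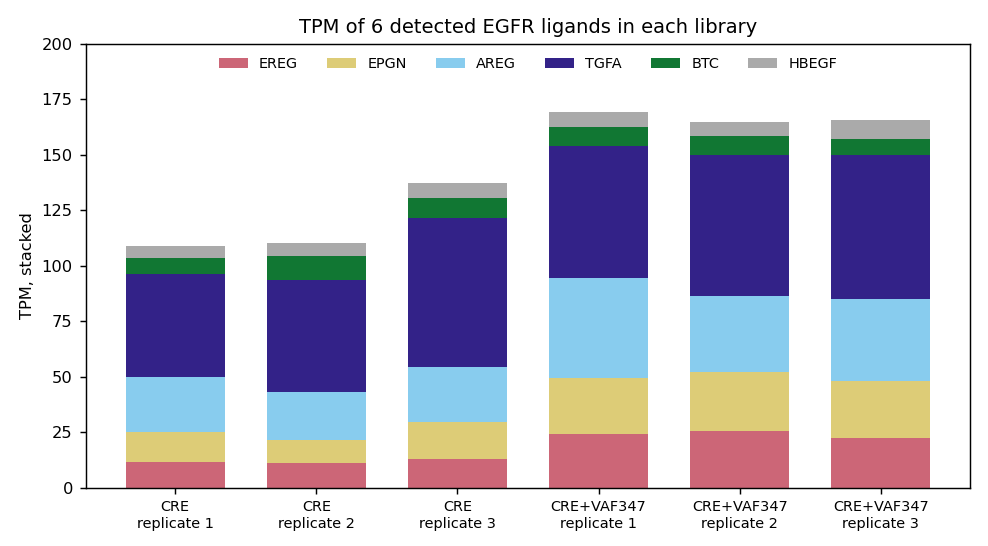
TPM of 6 ligand genes stacked for each library (*EGF*, at 0 or 0.130 TPM, is left out). The 3 CRE+VAF347 bars reach 165 to 170 TPM and the CRE bars 109 to 137 TPM; the lower 3 segments, *EREG*, *EPGN* and *AREG*, make up most of the difference.

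The fold changes of all genes varied with the GC content of their transcripts, and the genes that rose are poor in GC. *EREG* had 39.2% GC, *AREG* 41.2% and *EPGN* 42.9%, in GC deciles of the genes tested (mean log2 CPM over 3) whose median log2 fold changes were 0.11, 0.07 and 0.06. *BTC*, with the lowest GC content of the members at 39.1%, was not called. *ERBB2* and *TGFA* had the highest, 59.3% and 57.3%, in deciles with medians of -0.06 and -0.04. With an offset for GC content in each library, an alternative added after the data were seen, *EREG*, *EPGN* and *AREG* kept log2 fold changes of 1.05, 0.95 and 0.69 and were still called, and *ERBB2* had -0.14.

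Among 9712 genes with a mean TPM of at least 10, the patterns most like those of the ligands that rose were ranked by Pearson's r on log2 CPM over the 6 libraries. These values describe 6 points in 2 groups, and the genes compared come from the same libraries and share the same treatment contrast. For *EREG* the nearest was the AhR target *TIPARP* (r = 0.997), followed by *ALDH1A3-AS1* (r = 0.997) and *SFXN1* (r = 0.995). *TIPARP* and *ALDH1A3-AS1* had log2 fold changes of 2.24 and 1.65 and were themselves called. For *EPGN* they were *STX17*, *MCM8* and *HIPK3* (r = 0.998, 0.997 and 0.996), and for *AREG* they were *GET1*, *TUBE1* and *NANP* (r = 0.991, 0.990 and 0.989), none of which was called. *EPGN* stood at place 33 for *EREG*, and *EREG* at place 99 for *AREG*.

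The rest of the pathway was described with 5 lists of 62 genes, of which 58 were tested, 2 called higher and 3 called lower, where 0.501% and 1.71% of all genes tested were. In the list of ligand release, 10 of 11 genes were tested and 1 fell. *TIMP3*, an inhibitor of ADAM17, fell from 10.1, 11.4 and 12.4 TPM with CRE to 6.26, 7.50 and 6.47 TPM with CRE+VAF347, -0.71 ± 0.10 (SE) on the log2 scale with an edgeR adjusted p of 0.0019. Every VAF347 library lay below every CRE library. The protease gene *ADAM17* had a log2 fold change of -0.01 (95% interval -0.17 to 0.14), and *ADAM10* of -0.15 (95% interval -0.27 to -0.02, edgeR adjusted p = 0.171). At any fold change *ADAM9* and *ADAM15*, which encode further membrane proteases, passed an adjusted p under 0.05 at log2 fold changes of -0.23 and -0.22 (edgeR adjusted p = 0.0359 and 0.0439). Without CRE+VAF347 replicate 3 the edgeR adjusted p was 0.142 and 0.146, and each passed in 1 of the 6 fits without 1 library, that without CRE replicate 3. With the GC offset *ADAM9* passed at -0.32 (edgeR adjusted p = 0.00866) and *ADAM15* did not, at -0.15 (edgeR adjusted p = 0.206). The TPM groups of *ADAM15* overlapped. With limma on log2(TPM + 1) over genes with a mean TPM of at least 1, neither passed (adjusted p = 0.255 and 0.797). The list's median was -0.17.

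Among 16 receptor inhibitors and degradation factors 1 fell, and the median was -0.03. *ERRFI1*, which encodes a feedback inhibitor of the EGFR kinase, had 141, 141 and 165 TPM with CRE and 109, 106 and 89.3 TPM with CRE+VAF347. Its groups did not overlap, and its log2 fold change, -0.52 ± 0.08 (SE) with an edgeR adjusted p of 0.00287, was just past the threshold. Without CRE+VAF347 replicate 3 it was -0.44 and was not called. *SH3KBP1*, an adaptor in receptor endocytosis, passed the adjusted p at -0.35, under the fold threshold, but not without CRE+VAF347 replicate 1, 2 or 3 (edgeR adjusted p up to 0.104). The 20 receptor adaptors and RAS-ERK relay genes gave 0 calls by edgeR, with a median of 0.00. At any fold change *PIK3R1*, a regulatory subunit of PI3 kinase, passed an adjusted p under 0.05 with a log2 fold change of 0.47, and *MAPK3*, which encodes ERK1, with -0.28 (edgeR adjusted p = 0.0438). *PIK3R1* did not pass without CRE+VAF347 replicate 2 (edgeR adjusted p = 0.0533). *MAPK3* passed in 1 of the 6 fits without 1 library, that without CRE replicate 3, and the edgeR adjusted p was up to 0.176 in the others. It did not pass with DESeq2's Wald test (adjusted p = 0.127), the GC offset or the length offset.

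Of 10 genes whose transcription follows ERK activity in many cells, 2 rose and 1 fell, and 9 of the 10 had a log2 fold change above 0, with a median of 0.29. Of all genes tested, 2.21% were called and 52.1% lay above 0. The sign count has no test, and the list was chosen with earlier results of these data known. *ETV4* and *ETV5* encode transcription factors of the ETS family. *ETV4* had 8.36, 7.92 and 8.60 TPM with CRE and 15.7, 13.5 and 14.4 TPM with CRE+VAF347, which is 0.84 ± 0.10 (SE) in log2 units with an edgeR adjusted p of 0.000649. *ETV5* had 8.31, 8.96 and 6.12 TPM against 17.6, 11.3 and 15.6 TPM, which is 0.76 ± 0.12 (SE) with an edgeR adjusted p of 0.00465. Neither gene's groups overlapped. *PHLDA1* and *CCND1* passed the adjusted p at log2 fold changes of 0.41 and 0.32, under the fold threshold. *CCND1* did not pass without CRE replicate 2, CRE+VAF347 replicate 2 or CRE+VAF347 replicate 3 (edgeR adjusted p up to 0.0964). *DUSP6*, at 8 to 20 counts, had 1.00 with an edgeR adjusted p of 0.0697. In TPM the *DUSP6* groups overlapped, with means of 1.03 with CRE and 1.17 with CRE+VAF347. With limma on log2(TPM + 1) over genes with a mean TPM of at least 1, its log2 fold change was 0.10 (adjusted p = 0.94). *EPHA4*, a receptor of the ephrin family, had 15, 13 and 16 counts with CRE and 3, 6 and 2 with CRE+VAF347 and was called lower in counts (edgeR adjusted p = 0.0257). Its TPM values overlapped (0.338 to 1.32 against 0.0542 to 0.959), and with an offset for transcript length its log2 fold change was -0.90 (edgeR adjusted p = 0.724). The call was also lost without CRE replicate 1, CRE replicate 2, CRE+VAF347 replicate 1 or CRE+VAF347 replicate 3, with an edgeR adjusted p up to 0.131. With limma on log2(TPM + 1) over genes with a mean TPM of at least 1, *ETV4* was called, while *ETV5*, *TIMP3* and *ERRFI1* had adjusted p-values of 0.124, 0.0943 and 0.0686. In that fit *PHLDA1*, *CCND1*, *PIK3R1*, *SH3KBP1* and *MAPK3* did not pass (limma adjusted p = 0.263, 0.397, 0.22, 0.171 and 0.266).

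The other ERBB genes were barely detected. *ERBB4* had at most 2 counts in a library and *NRG3* had 0 counts in all. *NRG1* and *NRG2*, which encode ligands of ERBB3 and ERBB4, had 10 to 21 and 8 to 21 counts, with log2 fold changes of -0.37 and -0.15 that did not pass the test (edgeR adjusted p = 0.607 and 0.854).

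**Figure D5:**
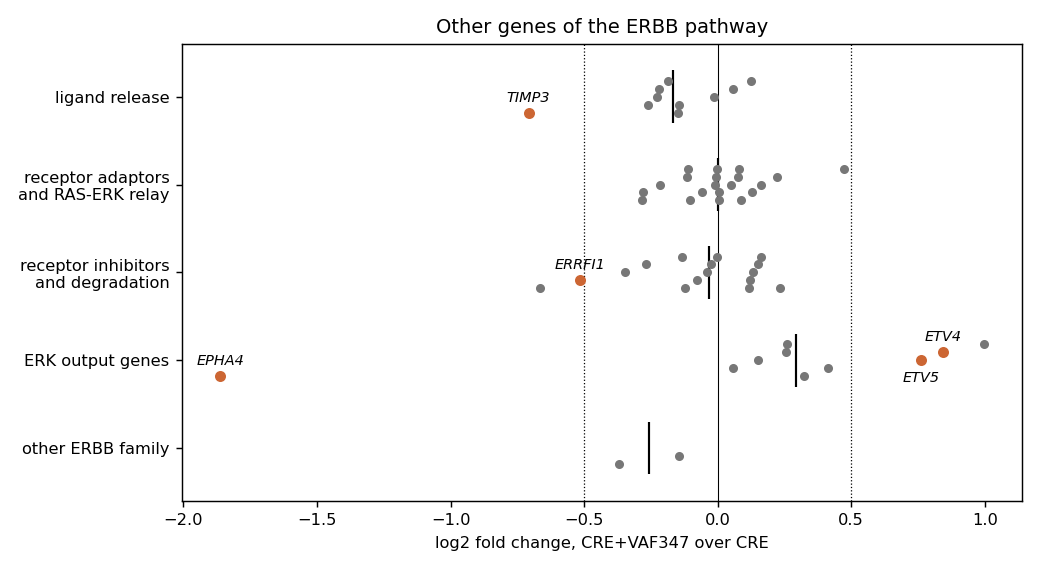
Log2 fold change of CRE+VAF347 over CRE for the 58 tested genes of 5 pathway lists. Each point is a gene, orange and named where called, vertical bars are list medians and dotted lines mark the fold threshold of 0.5; *ETV4* and *ETV5* lie right of it and *TIMP3*, *ERRFI1* and *EPHA4* left of it.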

How the data were processed

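Poly(A)-enriched RNA was sequenced in 6 libraries, 3 per treatment, assigned from the labels, and 0 per-sample columns were left unmatched. The authors made the deposited estimated counts with Salmon, per gene symbol and not scaled to depth, and the TPM that the authors deposited are its length-scaled levels, which sum to 1000000 per library. The Salmon version, annotation and use of strand are not given in the sources used here. The authors' deposited DESeq2 table (fold changes and p-values) was not used. All 61228 gene names were found in GENCODE v44, which gave positions and GC content.

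Counts were rounded (14.5% of values were not whole, tolerance 0.0005) and tested by quasi-likelihood in edgeR 4.0.16 under R 4.3.3, after filterByExpr and TMM scaling, with Benjamini-Hochberg adjustment. A standard error is the size of the log2 fold change divided by the square root of F. The scripts were tested on simulated data. Alternatives were DESeq2 1.42.0, its size factors, other filters, the replicate number as a block, limma 3.58.1 on log2(TPM + 1) and log2(TPM + 0.1), other thresholds, and leaving out each library. A GC offset and a transcript length offset were added after the data were seen. Genes named are the members, the called or contextual genes of the lists, 3 genes most like each called member, and the neighbours of *AREG*, which were picked after their values were seen. The members and lists were chosen with earlier results of these data known. Intervals and detection floors cover counting error and library spread only.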

Additional observations from a re-analysis of the deposited data

How the results depend on the processing

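The members called were 3 higher and 0 lower in each fit without 1 library, and also with DESeq2 size factors, DESeq2's Wald test, no filter, at least 10 counts required in all libraries, the replicate block, the GC offset and the length offset. With limma on log2(TPM + 1) and log2(TPM + 0.1) at a mean TPM of at least 1, *AREG* had log2 fold changes of 0.69 and 0.71 (adjusted p = 0.0531 and 0.0556) and was not called. Without a filter on TPM, 1 member (*EREG*) was called, *AREG* had 0.69 (limma adjusted p = 0.158) and *EPGN* 0.91 (limma adjusted p = 0.175). In the edgeR test against a log2 fold change of 0.5, 1 member (*EREG*) was called, and *AREG* at 0.76 and *EPGN* at 1.00 were not (adjusted p = 0.796 and 0.0504). The cause was not tested for the TPM fits, and the stricter null is the construction of the last. Without 1 library, *AREG* ran from 0.63 to 0.83, *EREG* from 1.08 to 1.18, *EPGN* from 0.92 to 1.11 and *BTC* from -0.13 to 0.14, reversed without CRE replicate 2 (0.14) and CRE+VAF347 replicate 3 (0.04).

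Over all genes, 77 higher and 263 lower calls became 187 and 411 with no filter, 34 and 50 with limma on log2(TPM + 1), 32 and 52 on log2(TPM + 0.1), 20 and 12 without a TPM filter, 207 and 626 at any fold change, and 26 and 21 in the test against 0.5. The length offset gave 154 lower calls. Without 1 library they ran from 58 to 110 higher and from 143 to 270 lower, fewest without CRE+VAF347 replicate 3. Pathway genes called, 2 higher and 3 lower, were 1 and 0 with limma at both pseudocounts, 0 and 0 with no TPM filter and in the test against 0.5, 5 and 7 at any fold change, and 1 higher with the length offset. Without 1 library they ran from 2 to 3 higher and from 1 to 3 lower, fewest lower without CRE+VAF347 replicate 3.

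The deviations of same-numbered replicates from their group means were weakly correlated, at 0.059, 0.055 and 0.011, though each library correlated best with its own number. These values do not settle whether the numbers pair the libraries. The replicate block gave 78 higher and 241 lower calls and changed no member's call. Under the block the edgeR adjusted p was 0.051 for *EPHA4*, 0.0527 for *ADAM9*, 0.066 for *ADAM15* and 0.0698 for *MAPK3*. The summed ligand TPM difference ran from 42.9 to 56.9 without 1 library. *HBEGF*, *BTC* and *EGF* had at most 121 counts in a library, which limits the precision of their fold changes.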

Other observations

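Transcript length implied by counts and TPM, relative to each gene's mean over the libraries, stayed within 99.1% to 102% for *AREG*. Its highest value was 113% for *EPGN*, and it ranged from 90.3% to 106% for *EREG*. The group means for *EPGN* were close, 100% with CRE and 101% with CRE+VAF347. For *EREG* they were 96.6% and 104%, so count and TPM folds differ more for *EREG*. With the offset for length, the log2 fold changes of *EPGN* and *EREG* were 0.99 and 1.04.

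The ratio of EREG to AREG RNA in TPM was 0.476, 0.529 and 0.521 with CRE and 0.541, 0.741 and 0.599 with CRE+VAF347, without overlap. That of EPGN to AREG was 0.541, 0.483 and 0.668 with CRE and 0.555, 0.774 and 0.684 with VAF347, with overlap.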
